A study of Bos taurus with 2 samples.

Results

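LOC132344459 is a protein-coding gene of the pseudoautosomal region (PAR) of the cattle Y chromosome, and its surroundings formed a broad valley of low CpG methylation in lung DNA. The valley was chosen for its low methylation in these same data, so its levels are a description and carry no test. It was read from 2812 CpGs, those between 250001 and 325000 of the Y in ARS-UCD2.0, where positions begin at the tip of the PAR. The gene lies at 287024 to 298821 and is 1 of 235 annotated protein-coding genes of the chromosome and 1 of 12 that the annotation used here holds in the PAR. The study's own gene table names the gene at these coordinates SHOX and places it on the plus strand, so its start is taken here as 287024. The nearest annotated protein-coding genes were far away, LOC132342097 ending 170117 bp before the stretch described below and CRLF2 beginning 307735 bp after it.

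Long reads of 2 kinds were used, with 1 library of PacBio HiFi reads and 1 of nanopore reads from Oxford Nanopore (ONT). The labels give both libraries as cattle lung, with no treatment and no age. Per the study the assembled animal was a single mid-gestation F1 fetus of a Wagyu and Charolais cross. The study's reporting form has the data of the technologies coming from the same samples. The tissue label was not checked, since no reference methylation of other tissues was used. The methylation level is given in percent, for PacBio as a model score that can stand above 0 where no read was modified, and for ONT as the percent of calls modified, averaged over both strand rows. PacBio depth had a median of 40 reads per CpG on the chromosome, 78 in the PAR and 37 outside the PAR. In the stretch described below it was 34. The ONT depth is unknown because only percentages were used.

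SHOX encodes a homeodomain transcription factor that acts in the growth of the limb skeleton, and in many mammals it lies in the PAR, where the X and Y chromosomes still recombine. In vertebrate genomes most CpGs are methylated, and short CpG-rich promoters are the usual exception. Genes of developmental transcription factors often stand out from this pattern, because the unmethylated DNA spreads over the whole gene and its surroundings. Such regions are known as DNA methylation valleys, and in tissues that do not express the gene they are commonly marked by Polycomb proteins.

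The unmethylated stretch ran from 278682 to 299992, a width of 21.3 kb, and contained the complete gene. It was defined on tiles of 500 bp with at least 3 CpGs, as the run with a PacBio mean below 20% that overlaps the gene. The run was trimmed to its outermost CpGs below 20%. Defining it on ONT levels instead gave the same first and last CpG. Of the 43 tiles touching the stretch, 42 were below 20% on PacBio, where 4.71% of all tiles of the chromosome and 2.54% of those of the PAR were. On ONT 43 were below 20%, where 6.17% of the tiles of the chromosome and 2.85% of those of the PAR were. The gene took up 55.4% of the width. Another 8342 bp, or 39.1%, lay before the gene start, and 1171 bp lay after the gene end. The stretch was therefore not centred on the gene start, and extended further into the gene than before it.

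**Figure D1:**
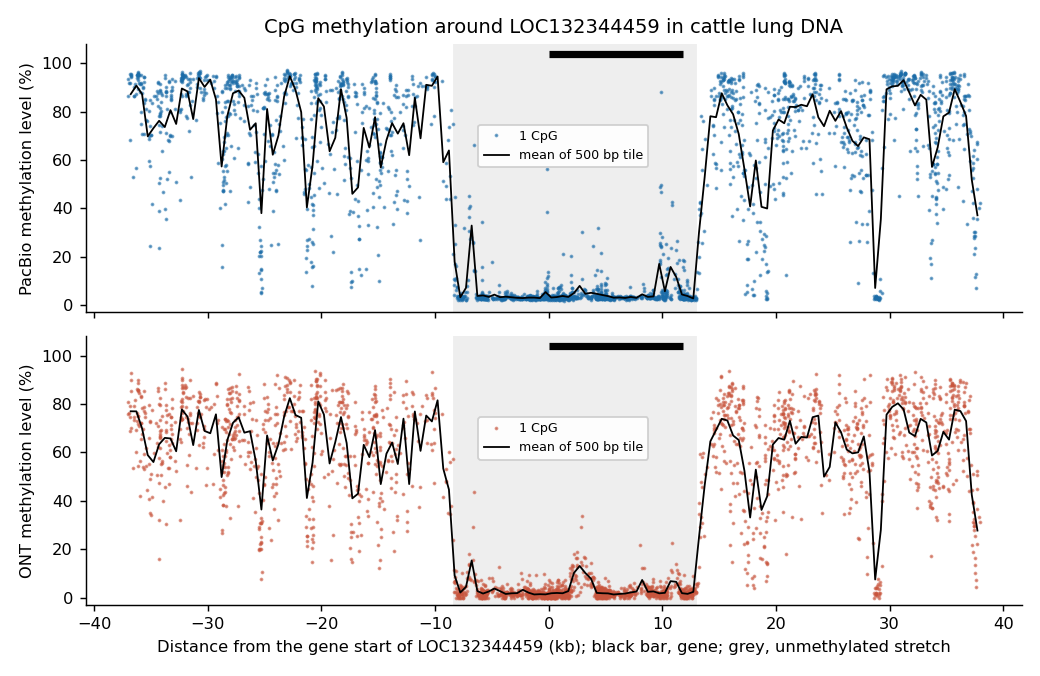
Methylation level in percent of every CpG (points) and mean of each 500 bp tile (line) on PacBio (upper panel) and ONT (lower panel), against distance from the gene start in kb. Grey marks the unmethylated stretch of 21.3 kb and the black bar the gene. Both platforms fall to a few percent over the same interval, with flanks averaging 75.1% (left) and 71.2% (right) on PacBio.

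Methylation in the stretch was close to the lowest values that occur in the data. The mean over its 1229 CpGs was 4.82% ± 6.37 on PacBio and 2.54% ± 3.37 on ONT, where the error is the SD over CpGs. The median was 3.20% on PacBio and 1.61% on ONT. The lowest PacBio score anywhere on the chromosome was 1.7%, so the median CpG of the stretch stood near the floor of that scale. On PacBio 1189 CpGs were below 20%, a share of 96.7%, where 8.53% of the CpGs of the chromosome and 7.91% of those of the PAR were. On ONT 1223 CpGs were below 20%, or 99.5%, against 9.91% of those of the chromosome and 8.45% of those of the PAR. A level below 5% on both platforms was seen at 971 CpGs, and in the PAR outside the window at 5272 of 133547.

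Pooled over the stretch, 1375 of 41085 PacBio read observations were estimated as modified, which is 3.35% (95% Wilson interval 3.18 to 3.53). A typical CpG with 34 reads had 1 modified read, a level of 2.94% (Wilson interval 0.521 to 14.9). Such intervals cover counting error only, and neighbouring CpGs share reads. On ONT 30.2% of the strand rows were at exactly 0, against 1.73% in the PAR outside the window. In the flanks, 0 of 1560 rows on the left and 12 of 1606 on the right were at 0. An ONT row at 0 can be a measured value or a missing one, and which of these applied was not tested. Within the stretch both rows were at 0 for 122 CpGs. In the gene, leaving out every CpG with a row at 0 raised the ONT mean from 2.80% to 4.27% over the 358 CpGs that remained. Such a step removes low values, so a higher mean follows from it.

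The gene itself was unmethylated along its length. Over its 671 CpGs, PacBio averaged 4.89% ± 6.29 and ONT 2.80% ± 3.51. In the kilobase on either side of the gene start, 212 CpGs averaged 3.98% ± 4.61 and 1.57% ± 1.59. Cut into 3 segments of equal length, the gene stood, from first to last, at 3.89%, 3.87% and 7.55% on PacBio and at 3.68%, 1.81% and 2.96% on ONT. The last segment was the highest on PacBio and the first segment the highest on ONT, so the platforms placed the small rises inside the gene differently. The DNA of the stretch before the gene had 4.93% ± 6.98 and 2.33% ± 3.41 over 459 CpGs, and that after the gene end 3.91% ± 2.99 and 1.76% ± 1.63 over 99 CpGs.

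At both edges the level changed within a short distance. On the left, the nearest CpG outside the stretch, at 278620, had 21.1% on PacBio, and the next one outwards, at 278568, had 75%. The CpG just inside, at 278682, had 10.7%. The tile that holds this edge, with the CpGs at 278568 and 278620 included, averaged 18.0% ± 18.5 over 17 CpGs and the tile just outside 64.0% ± 15.04 over 5 CpGs. On the right the tile just inside averaged 2.79% ± 0.370 over 28 CpGs and the tile just outside 30.1% ± 20.8 over 12 CpGs. Among the latter, the CpGs at 300014, 300036 and 300101 still had 3.10%, 6.70% and 13.6%. The ends depend on the tile grid, and with tiles of 250 bp they lay at 278795 and 300247.

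The distance over which methylation returned was measured outwards to the first CpG whose running mean over 15 CpGs reached 60%. It was 517 bp on the left and 672 bp on the right for PacBio, an order that rests on where the tile grid put the ends. For ONT it was 1621 bp and 1503 bp, but there 60% lies close to the flank means of 64.6% and 61.97%, so the ONT distances are not compared between the edges. Within 2 kb outside the stretch, PacBio levels averaged 76.0% ± 22.0 on the left over 24 CpGs and 58.2% ± 27.4 on the right over 38 CpGs. In the 2 kb inside the left edge the mean was 10.7% ± 13.2 over 77 CpGs, against 4.62% ± 4.01 over 147 CpGs inside the right edge. The inner side of the left edge had the higher mean on both platforms, at 5.21% ± 6.64 against 2.27% ± 2.31 on ONT.

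**Figure D2:**
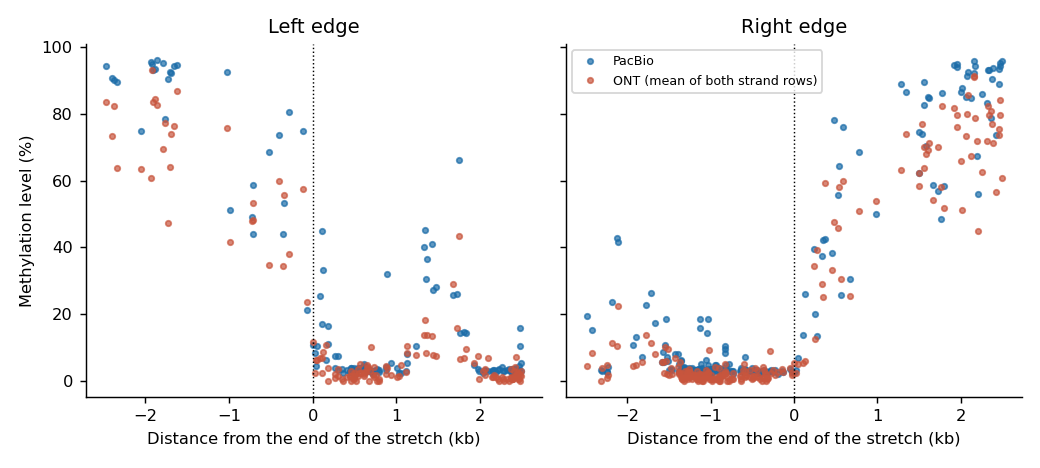
Methylation level in percent of single CpGs on PacBio (blue) and ONT (red) within 2.5 kb of each end of the unmethylated stretch, against distance from that end in kb. All CpGs within 2 kb outside the left end lie above 20% on both platforms, whereas 5 of the 38 CpGs outside the right end lie below it on PacBio.

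CpGs were dense in the stretch, though unevenly so. It held 57.7 CpGs per kb, against 19.8 in the PAR outside the window and, in the flanks, 27.2 to the left and 32.1 to the right. The median distance between neighbouring CpGs was 9 bp in the stretch and 20 bp and 17 bp in the flanks. The kilobase on either side of the gene start was denser still, at 106 CpGs per kb. The densest tile, at 286501 to 287000 immediately before the gene start, held 74 CpGs, and the sparsest tiles, at 289501 to 290000 and 294501 to 295000, held 8 each.

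CpG-rich DNA came in 8 runs of tiles with at least 30 CpGs, which held 847 of the 1229 CpGs. The longest run, at 286501 to 289000, covered the gene start with 267 CpGs and averaged 4.001% ± 4.31 for PacBio and 1.78% ± 1.86 for ONT. The next, at 291001 to 293000 within the gene, held 186 CpGs at 4.06% ± 3.09 and 1.71% ± 1.38. A run of 105 CpGs at 298501 to 299500 lay across the gene end, with 4.17% ± 2.92 and 1.69% ± 1.48. A run of 101 CpGs at 285001 to 286000, before the gene, had 3.14% ± 0.534 and 1.64% ± 1.69. The other 4 runs held between 30 and 66 CpGs, at 60 to 114 CpGs per kb and PacBio means from 3.28% to 10.9%. The flanks also had 4 tiles with at least 30 CpGs, at 60 to 68 CpGs per kb, with PacBio means between 65.2% and 78.2%. The edges were drawn on the tile levels, so that dense tiles are low inside and high outside follows in part from the rule.

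The CpG-poorer DNA between these runs was unmethylated too. Its 382 CpGs averaged 5.71% ± 7.74 on PacBio and 4.26% ± 5.13 on ONT, and the dense runs 4.42% ± 5.60 and 1.77% ± 1.64. The comparison with other PAR tiles of like density shows how far the sparse tiles of the valley departed from the rest. In the valley the 17 tiles with 10 to 19 CpGs had a median PacBio level of 4.37%, while 4964 such tiles elsewhere in the PAR had a median of 84.3%, and 1.67% of them were below 20%. Among tiles with at least 30 CpGs, the 18 in the valley had a median of 3.77% and the 229 elsewhere in the PAR a median of 75.5%, with 34.9% of them below 20%. These are counts of tiles within 1 library, and the valley was chosen for its level.

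**Figure D3:**
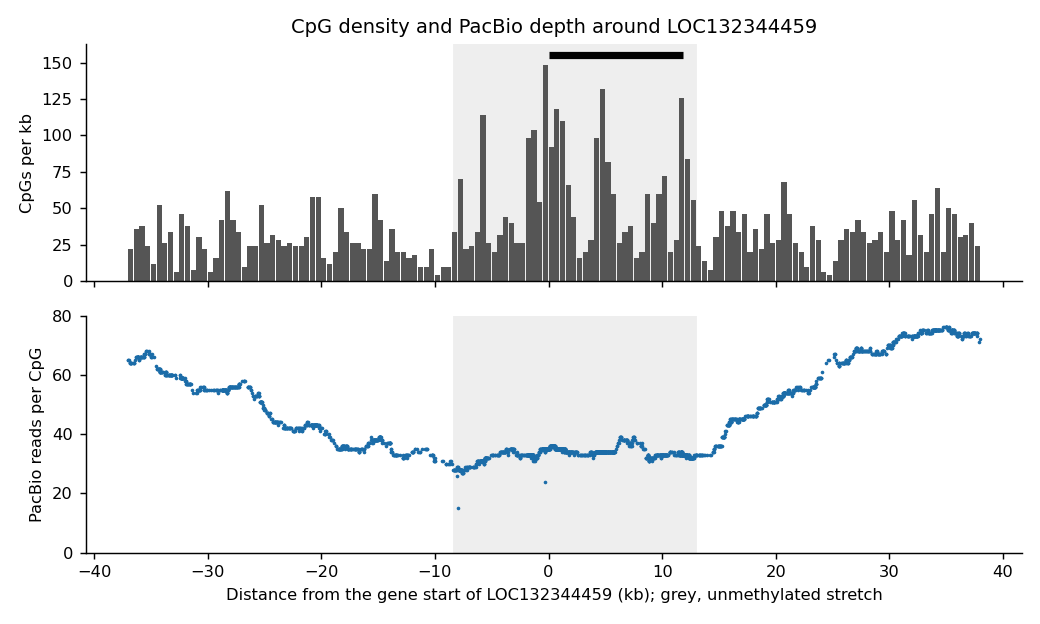
CpGs per kb in 500 bp tiles (upper panel, bars) and PacBio reads per CpG (lower panel, points) against distance from the gene start in kb, with the stretch in grey and the gene as a black bar. Density peaks at 148 CpGs per kb just before the gene start, and depth is lowest in and next to the stretch.

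PacBio depth was lowest in and next to the stretch. The median was 62 reads per CpG at 250001 to 255000, fell to 28 at 275001 to 280000, stayed between 32 and 35 in the 5 kb bins from 280001 to 300000, and reached 75 at 320001 to 325000. On the left the fall began well outside the stretch, and in the 2 kb outside that edge the median depth was 31 and the PacBio level 76.0%. On the right, depth and methylation both rose within a few kilobases of the edge. The tile at 300501 to 301000 had a median depth of 33 and a PacBio level of 53.0%. At 303001 to 303500 these were 45 and 79.0%. The annotation also holds a gene named SHOX on chromosome 2, at 121446638 to 121458374, of 11737 bp against 11798 bp for LOC132344459. Whether reads were divided between these genes, and what part depth played in the levels, was not tested. All 2812 CpGs of the window had at least 15 reads.

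**Figure D4:**
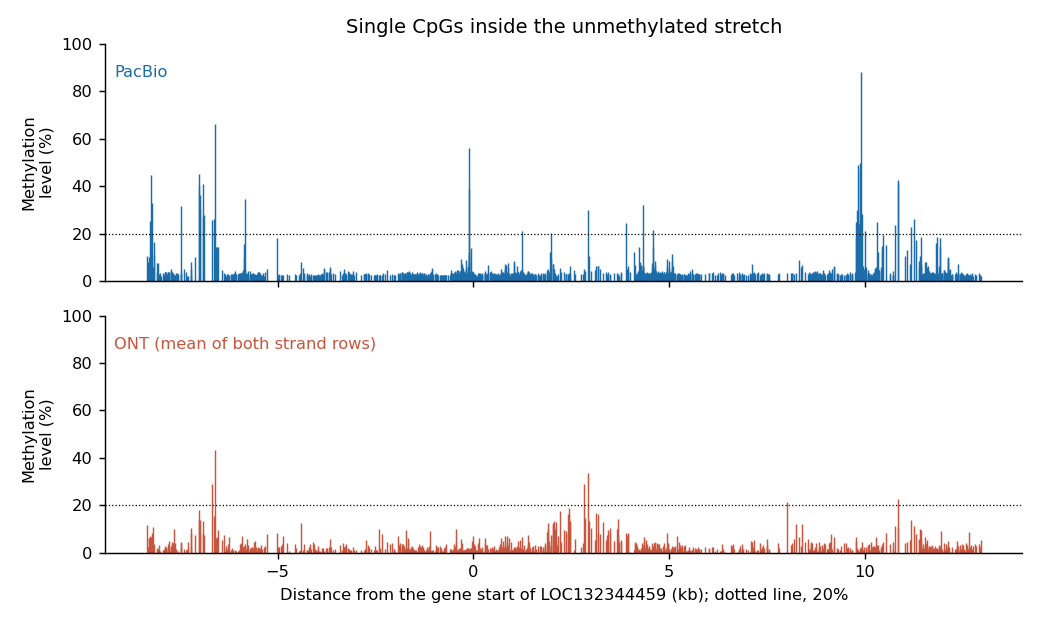
Level in percent of each CpG inside the unmethylated stretch on PacBio (upper panel) and ONT (lower panel), against distance from the gene start in kb, with a dotted line at 20%. A group of CpGs near the left edge rises on both platforms, a group inside the gene near its end rises on PacBio and stays between 0% and 6.82% on ONT, and a low broad rise after the gene start is higher on ONT.

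Partly methylated CpGs inside the valley were few and clustered. At least 20% was reached by 40 CpGs on PacBio and by 6 on ONT, with 4 in common. Of the 42 CpGs concerned, 27 lay in 4 clusters in which such CpGs numbered at least 3 and were at most 300 bp apart. The clusters were drawn around CpGs chosen for their level, so raised levels in them follow in part from the choice. Outside these clusters, the remaining 1190 CpGs averaged 4.05% ± 3.57 on PacBio and 2.39% ± 2.90 on ONT. The first cluster, at 278773 to 278806, adjoined the left edge and had 30.1% ± 11.8 on PacBio and 6.11% ± 2.68 on ONT over 4 CpGs.

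The second cluster, at 280021 to 280431, formed the only tile of the stretch above 20% on PacBio. Its 10 CpGs ranged from 25.6% to 66.2% with a median of 33.5% on PacBio, and from 7.44% to 43.5% with a median of 13.7% on ONT. All 10 reached 20% on PacBio, so the PacBio level of this cluster follows from the choice. On ONT 2 of them did, and the CpG at 280431 was the highest of the stretch on that platform. The next, at 296797 to 297043 in the last segment of the gene, held 22 CpGs from 3.10% to 88.3% on PacBio with a median of 19.9%, whereas ONT ranged from 0% to 6.82% with a median of 1.15%. All 11 CpGs that marked this cluster reached 20% on PacBio and none did on ONT, so its PacBio level follows from the choice. Summed over its CpGs, 161 of 724 PacBio read observations were estimated as modified, at a median depth of 33 reads. The last cluster, at 297810 to 297884, had 35.9% ± 10.8 and 14.7% ± 6.76 over 3 CpGs.

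ONT was higher than PacBio in 6 of the 43 tiles. A run of 4 such tiles lay at 289001 to 291000, where CpGs numbered 27 per kb, about 2 kb after the gene start. Its 54 CpGs averaged 9.98% ± 6.09 on ONT and 5.42% ± 5.16 on PacBio. The run was picked for ONT exceeding PacBio, so this excess follows from the choice. The ONT strand rows, whose mean entered the choice, stood at 10.4% and 9.51%. Elsewhere ONT was mostly the lower platform, and over the whole stretch it was 2.28 points below PacBio, compared with 9.93 points in the PAR outside the window. Across the 2812 CpGs of the window the platforms had a Pearson correlation of 0.966, while among the 1229 CpGs of the stretch it was 0.363. CpGs of 1 library share reads and are not replicates, and no p-value was attached to either.

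The flanks of the valley were methylated, with interruptions. The left flank averaged 75.1% ± 21.7 on PacBio and 64.6% ± 18.3 on ONT over 780 CpGs, and the right flank 71.2% ± 24.97 and 61.97% ± 21.9 over 803 CpGs. These levels were close to the mean of the PAR outside the window, 75.5% ± 26.2 and 65.6% ± 23.7. Of 105 flank tiles, 85 stood at 60% or more and 11 below 50% on PacBio. The single flank tile below 20% was at 315501 to 316000, where 14 CpGs averaged 7.11% by PacBio and 7.45% by ONT.

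The stretch was then set beside the other unmethylated stretches of the chromosome found by the same rule. Of 857 stretches with at least 2 tiles below 20% it was the second in width and the first in number of CpGs. The single wider one, at 26504572 to 26533651 in the long arm, spanned 29.1 kb but held 226 CpGs, at 7.77 per kb, its level being 16.6% ± 11.9 by PacBio and 18.0% ± 10.7 by ONT. The next after the valley, at 26636122 to 26652801 and 26446252 to 26458437, were of the same sparse kind, with 5.40 and 7.30 CpGs per kb and PacBio levels of 19.8% and 18.7%. These 3 were CpG-poor, and their levels stood several times above that of the valley.

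Among the 51 other stretches with at least 40 CpGs per kb the median width was 2.23 kb. The widest, at 7865086 to 7871478, overlapped LOC132342139 and spanned 6.39 kb with 544 CpGs, at 8.22% ± 12.1 on PacBio and 2.76% ± 4.11 on ONT. The stretch at LOC132344459 was 3.33 times as wide and held 2.26 times as many CpGs. In the PAR the 57 other stretches had a median width of 1.73 kb and a maximum of 4.96 kb, at 6534526 to 6539489, a stretch with 6.22% ± 7.44 on PacBio but a median depth of 16 reads.

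**Figure D5:**
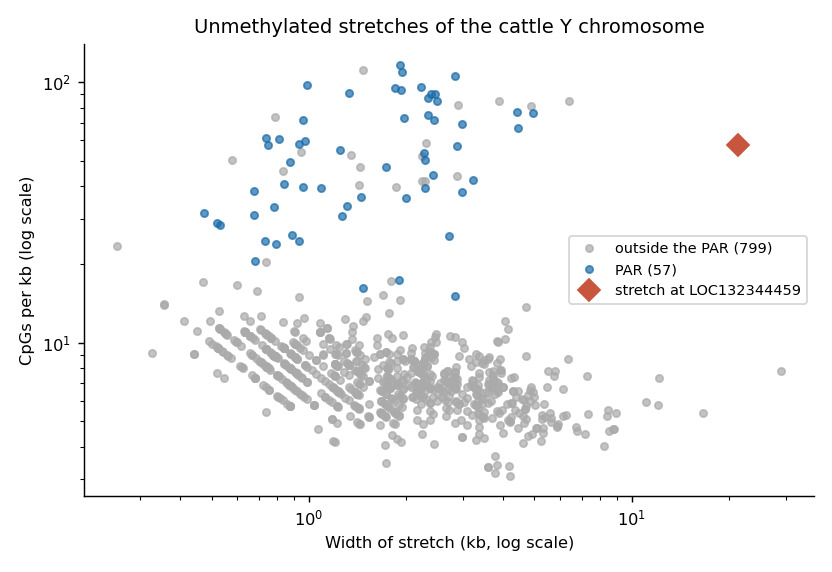
Width in kb and CpGs per kb, both on log scales, of the 857 unmethylated stretches of the chromosome with at least 2 tiles below 20%, for the PAR (blue), the rest of the chromosome (grey) and LOC132344459 (red). The stretch at LOC132344459, at 21.3 kb and 57.7 CpGs per kb, stands apart from both the short dense stretches and the long sparse ones.

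Other genes were unmethylated over a part of their length. From 5 kb before to 5 kb after LOC132344459, 88.4% of 1185 CpGs were below 20% on PacBio and 90.3% on ONT. The gene nearest to it in this share, out of 235, was LOC132344463, a PAR gene at 736218 to 740740, with 57.7% of 923 CpGs. It was followed by DDX3Y, an RNA helicase gene of the male-specific region, with 40.7% of 280 CpGs, and by LOC132344666 at 25929369 to 25931228 with 36.2% of 80 CpGs. The annotation used here lists PAR protein-coding genes only as far as AKAP17A, which ends at 849342, and the study counts more genes in the PAR than these. All 11 others on this list overlapped an unmethylated stretch, none of them wider than 2.97 kb, while 31 of all 234 other protein-coding genes of the chromosome did, with a widest stretch of 6.39 kb. The bodies of the 11 other PAR genes averaged from 40.5% to 83.5% on PacBio, with a median of 66.2%, and from 33.4% to 75.3% on ONT. The body of LOC132344459 was the lowest on PacBio of the 234 genes with a CpG in the body, and the next lowest, LOC132344692, had 21.5% over 3 CpGs.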

How the data were processed

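For PacBio, the authors estimated methylation per read with Primrose, aligned with pbmm2 and summarised both strands per CpG with pb-CpG-tools (v2.3.2). The deposited file holds, per CpG, a model score in percent, the read count, and how many reads were estimated modified or unmodified. For ONT, the authors called modified bases with Dorado, aligned with Winnowmap and summarised with modbam2bed. The deposited values are percent modified per strand row, without counts. The methods name a step that sets missing PacBio values to 0, but the lowest score in the deposited file was 1.7 percent. The aligned build was matched to positions by the rule given with the gene: PacBio coordinates were reversed and ONT coordinates shifted, and all 2812 CpGs of the window had both ONT rows.

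A CpG needed 10 PacBio reads or more. Tiles of 500 bp needed 3 CpGs, and at most 2 tiles in a row at or above 20% could lie inside a stretch. Gene positions are from a table of the ARS-UCD2.0 annotation, in which strand was not included. The study's table gave the name and strand. Named were the gene, the PAR genes as a list, and the 3 genes nearest in the share of CpGs below 20%. The gene, lists and rules were chosen with earlier results of these data known. The PAR end was that of the study. With 1 library per platform no test was run. The stretch caller was tested on simulated data. Alternatives covered threshold, tile size, coverage, platform, level and edge rule. The software was matplotlib 3.10.9, pandas 2.3.3, numpy 2.4.6 and scipy 1.17.1 under Python 3.11.15.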

Additional observations from a re-analysis of the deposited data

Results flagged for a closer look

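In the CpG cluster at 296797 to 297043, inside the gene near its end, the platforms differed. Measured from the CpGs outside the clusters, it stood 19.1 points higher by PacBio, while the ONT value was -0.707 points. The cluster was drawn around CpGs of at least 20% on either platform, and all 11 of them reached this on PacBio and none on ONT, so the PacBio excess follows from the choice. Having 1 library per platform, this was not tested.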

How the results depend on the processing

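The width of the stretch lay between 19.5 kb and 21.8 kb under all 10 alternatives for it, and its CpG density kept within 1.5 times its value. The smallest width came from allowing no tile at or above 20% inside, which moved its left end to 280516 and left PacBio at 4.44% and ONT at 2.37%. The ONT level was 2.51% with a threshold of 10% and also with tiles of 1 kb, 2.56% with a threshold of 30%, with tiles of 250 bp and with ends set by the estimated counts, and 2.74% with a threshold of 50%. The PacBio level was 5.02% with a threshold of 50% and 3.41% from the estimated counts, which also gave 3.64% for the gene. The ONT level of the gene was 2.76% and 2.84% from single strand rows and 4.27% without CpGs that had a row at 0. For the width of the rise, ONT gave 1621 bp on the left and 1503 bp on the right. On the right, PacBio gave 1280 bp with a running mean over 31 CpGs and 1503 bp with a rise to 70%. The other alternatives for these results moved no value beyond 1.5 times or its counting interval, and the causes were not tested. No paired analysis was possible because each platform has 1 library. The PacBio median of 34 reads in the stretch limits single CpGs, and the ONT depth is unknown.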
